A study of Homo sapiens with 12 samples.

Results

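In this series 10 genes of the NF-kB system were followed through 12 expression arrays of HCC827 cells. The subunit genes were NFKB1, NFKB2 and RELB, and the feedback genes NFKBIA and TNFAIP3. The others were TNFAIP2, a gene induced by TNF, the target genes ICAM1, CCL2 and CCL20, and LCN2. The genes were chosen by name, and every probe set that the platform annotation ties to 1 of these symbols was taken. All 10 genes were measured, by 16 of the 22215 probe sets tested, out of 11963 genes with a named probe set. HCC827 is an established lung adenocarcinoma line whose growth depends on a mutated EGFR, the receptor kinase blocked by erlotinib. The arrays form 4 groups of 3: ERC4, an HCC827 derivative labelled erlotinib resistant, parental HCC827, EGFRsh (labelled Esh9-1), which carries a lentiviral shRNA against EGFR, and NT (labelled HCC827NT), which carries a control shRNA with no target. All groups grew in RPMI with 5% FBS, and only EGFRsh and NT cells also received puromycin, at 5 ug/ml. The labels list no drug in the medium of ERC4 cells. ERC4 is a single resistant line and EGFRsh a single shRNA, so effects of that line or that shRNA cannot be told apart from resistance or EGFR loss.

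NF-kB transcription factors are pairs of Rel proteins that wait in the cytoplasm, held by inhibitors such as the product of NFKBIA. Signals from cytokine receptors reach the IkB kinases, the inhibitor is degraded, and the freed factor switches on genes of inflammation together with genes that shut the signal down, NFKBIA and TNFAIP3 among them. A slower branch runs through the kinase NIK (MAP3K14), which triggers the processing of the NFKB2 precursor into a partner of RELB. In lung epithelium NF-kB activity is known for chemokine and acute-phase output, and LCN2, a secreted protein that binds iron-loaded siderophores, is one of its best-known epithelial targets.

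The promoter windows shown each hold a match to the kB consensus, so that such elements can be seen. The windows of TNFAIP2 and ICAM1 held no match to it and are not shown. Each window covers 300 bases, 250 before the annotated start and 50 after it, from RefSeq (GRCh38.p14), written along the gene's strand. Capitals mark matches to the kB consensus on either strand, and neighbouring matches can overlap. The NFKB2 window is 1 of 3 listed for that gene.
LCN2, chr9:128149203-128149502, plus strand: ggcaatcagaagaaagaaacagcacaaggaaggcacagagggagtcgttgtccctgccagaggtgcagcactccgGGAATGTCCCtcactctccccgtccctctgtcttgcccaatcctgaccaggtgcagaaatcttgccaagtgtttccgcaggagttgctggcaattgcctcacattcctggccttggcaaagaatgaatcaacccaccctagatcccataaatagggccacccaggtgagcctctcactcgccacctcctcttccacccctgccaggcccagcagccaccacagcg
NFKBIA, chr14:35404700-35404999, minus strand: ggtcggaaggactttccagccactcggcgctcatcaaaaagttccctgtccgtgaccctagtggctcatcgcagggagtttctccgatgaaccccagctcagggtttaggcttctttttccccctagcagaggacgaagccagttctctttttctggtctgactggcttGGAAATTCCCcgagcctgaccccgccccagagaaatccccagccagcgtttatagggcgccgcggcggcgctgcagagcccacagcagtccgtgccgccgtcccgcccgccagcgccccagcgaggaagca
TNFAIP3, chr6:137867009-137867308, plus strand: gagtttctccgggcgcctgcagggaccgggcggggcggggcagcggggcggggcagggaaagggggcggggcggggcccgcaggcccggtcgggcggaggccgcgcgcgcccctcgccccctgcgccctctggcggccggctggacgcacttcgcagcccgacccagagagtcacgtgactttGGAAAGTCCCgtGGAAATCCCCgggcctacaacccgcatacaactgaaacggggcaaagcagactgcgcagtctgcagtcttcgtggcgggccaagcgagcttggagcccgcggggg
CCL20, chr2:227813592-227813891, plus strand: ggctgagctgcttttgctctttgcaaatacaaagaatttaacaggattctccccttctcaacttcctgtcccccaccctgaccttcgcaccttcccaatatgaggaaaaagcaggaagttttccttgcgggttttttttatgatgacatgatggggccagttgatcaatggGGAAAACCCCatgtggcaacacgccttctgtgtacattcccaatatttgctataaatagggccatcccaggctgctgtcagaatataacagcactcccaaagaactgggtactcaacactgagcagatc
NFKB2, chr10:102394328-102394627, plus strand: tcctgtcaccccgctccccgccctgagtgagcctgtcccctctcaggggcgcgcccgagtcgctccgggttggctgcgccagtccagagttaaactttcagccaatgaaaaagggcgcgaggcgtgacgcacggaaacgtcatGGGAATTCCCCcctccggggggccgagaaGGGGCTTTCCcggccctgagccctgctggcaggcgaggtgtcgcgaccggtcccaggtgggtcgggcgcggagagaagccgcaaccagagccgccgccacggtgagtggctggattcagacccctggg

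The promoter table held 11 windows for 8 of the 10 genes, with RELB and CCL2 unmatched. A kB consensus lay in at least 1 window of 6 of these genes (NFKB1, NFKB2, NFKBIA, TNFAIP3, CCL20 and LCN2), in 7 of the 11 windows, against 11.3% of all 35116 windows. A second form has GGGA and CC with 4 unspecified bases between them, on either strand. It lay in 10 of the 11 windows and in 25.6% of all windows. The consensus also takes G where this form needs the A, so the form misses some consensus matches. It overlaps the consensus at several of these places, and TNFAIP2 held neither form. In NFKB1 and NFKBIA the consensus read GGGAATTTCC in the motif's direction, in TNFAIP3 GGGACTTTCC and GGGGATTTCC, and in LCN2 GGGACATTCC. Counted from the start site, the first base of the match lay at -175 in LCN2, -81 in NFKBIA, -79 in CCL20 and -49 in NFKB1. The arrays do not measure binding, so these matches are only descriptions of sequence, and a window without one says only that these letters are not in it.

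Gene positions below are RefSeq's on GRCh38.p14. Levels are log2(intensity + 1), in which a change of 1 is a doubling, and differences are log2 fold changes of the mean of 3 arrays with limma's standard error. Calls are made where limma's two-sided p, adjusted over all 22215 probe sets by Benjamini-Hochberg, is under 0.05, and every adjusted p below is of that kind. Array medians lay between 5.67 and 5.75 in ERC4 and parental cells and between 7.15 and 7.17 in EGFRsh and NT cells, so each pair was compared within its own set of 6 arrays and no level is set across them. Replicate arrays correlated at 0.9922 or above. The labels do not say that replicates came from separate cultures, and the p-values then speak only of the spread among these arrays, which may be technical. Hybridisation controls, added to each sample, averaged 9.48 ± 0.07 (SD, n = 3) in ERC4 and 11.04 ± 0.15 in parental cells, and 11.92 ± 0.06 in EGFRsh and 11.37 ± 0.10 in NT cells. The 3' minus 5' signal of the ACTB control was 1.07 ± 0.15 in EGFRsh cells and 0.20 ± 0.03 in NT cells, and 0.19 ± 0.04 in ERC4 and 0.22 ± 0.05 in parental cells. For the GAPDH control it was 0.30 ± 0.08 in EGFRsh and -0.05 ± 0.02 in NT cells, and -0.08 ± 0.03 in ERC4 and 0.06 ± 0.03 in parental cells. The part of these control differences in the results was not tested. EGFR itself was read by 6 probe sets. In EGFRsh against NT cells 4 of them fell, from 2.46-fold in the brightest (201983_s_at, adjusted p = 9.2e-07) up to 6.60-fold in 211607_x_at. The other two, 211550_at and 211551_at, were dimmer and differed by 0.06 (not called, adjusted p = 0.6) and 0.18 (adjusted p = 0.045). In ERC4 against parental cells the brightest differed by 0.21 ± 0.08 and was not called (adjusted p = 0.051), while 201984_s_at (0.66, adjusted p = 0.00016), 210984_x_at (0.27, adjusted p = 0.023) and 211607_x_at (0.26, adjusted p = 0.021) were called higher. The calls of 210984_x_at and 211607_x_at each ended under 6 alternatives, single arrays left out among them.

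In ERC4 against parental cells, LCN2 fell 29.5-fold and CCL2, a chemokine that attracts monocytes, rose 3.82-fold. TNFAIP3, which encodes the ubiquitin-editing NF-kB inhibitor A20, rose 1.83-fold, NFKB2 rose 1.48-fold and NFKBIA fell by 0.45 ± 0.07 on the log2 scale. NFKB1, RELB and CCL20 were not called. Of the 16 probe sets, 7 were called higher, 4 lower and 5 were not called, while 48.5% of all probe sets were called, 23.6% higher and 24.9% lower. Their median difference was 0.24, against -0.06 over all probe sets. Some genes enter that median with more than 1 probe set. By the brightest probe set of each gene it was only 0.03, against -0.04 over all genes. Counted that way, 4 genes rose, 3 fell and 3 were not called. By at least 2-fold, 1 probe set was higher and 1 lower, where 5.37% of all probe sets passed that mark. For 14 of the 16, all ERC4 arrays lay on one side of all parental arrays, as was so for 58.2% of all probe sets.

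In EGFRsh against NT cells, 14 of the 16 probe sets were called, 8 higher and 6 lower, where 50.3% of all probe sets were called, 24.5% higher and 25.9% lower. RELB, whose product pairs with processed NFKB2, rose 2.09-fold, and TNFAIP2, a gene induced by TNF, rose 2.80-fold. LCN2 fell 9.33-fold and CCL20, the chemokine ligand of the receptor CCR6, fell 4.82-fold. The median difference was 0.21, against -0.03 over all probe sets. By the brightest probe set of each gene it was 0.30, against -0.02 over all genes. By at least 2-fold, 4 probe sets were higher and 2 lower, where 8.80% of all probe sets passed that mark, and the groups did not overlap in 15 of the 16, against 58.8% of all. The raised 3' minus 5' signals of the ACTB and GAPDH controls given above were present in the same EGFRsh arrays.

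**Figure D1:**
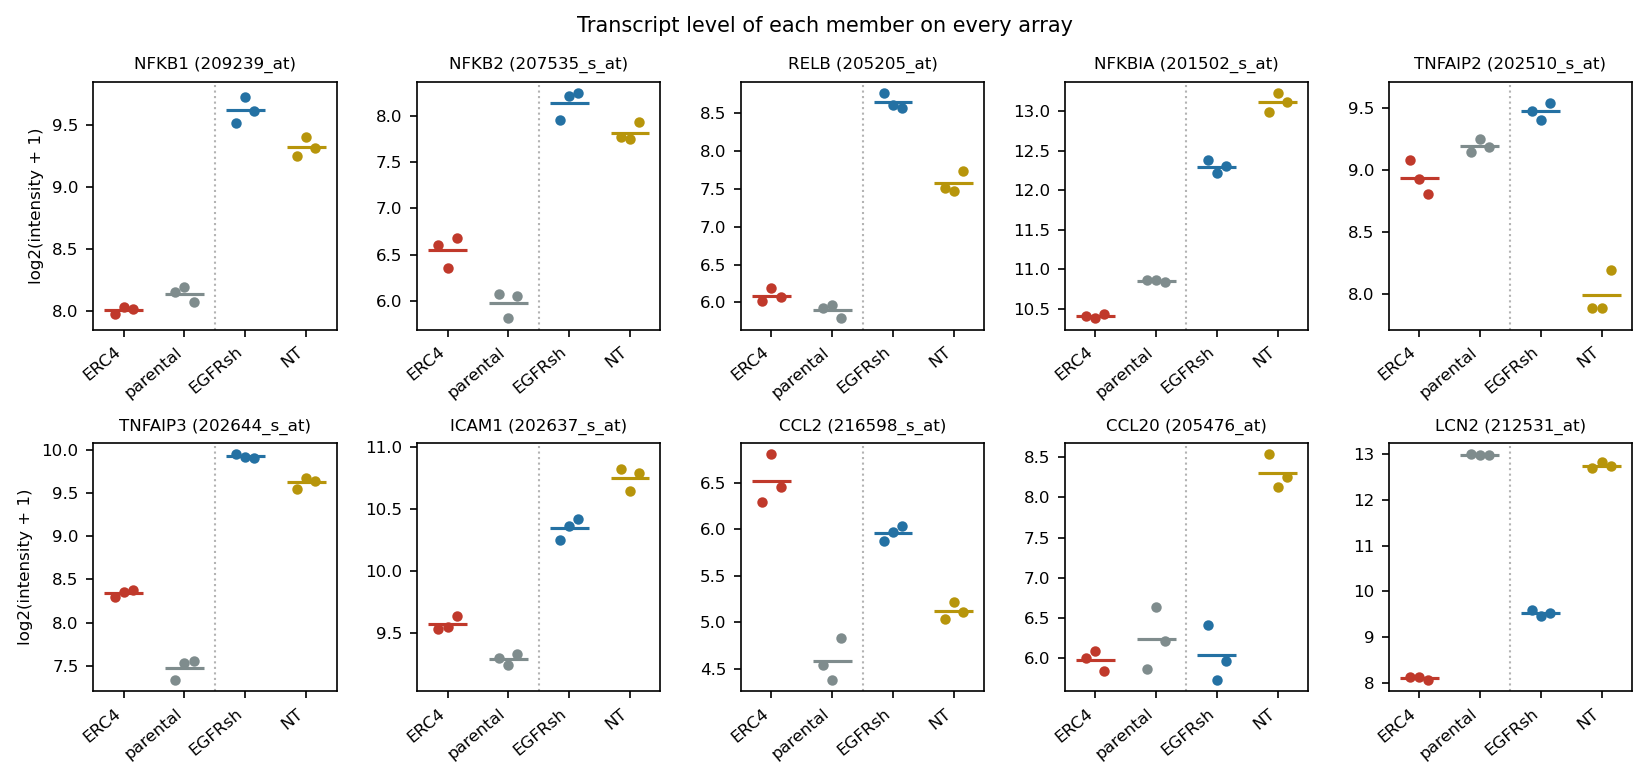
Levels of the 10 genes on each array, as log2(intensity + 1), with the brightest probe set of each gene. Points are arrays, bars are means of 3 arrays, and the dotted line separates the 2 sets of arrays, across which levels cannot be compared. LCN2 lay at 8.07 to 8.13 in ERC4 and at 12.98 to 13.00 in parental cells, with no overlap.

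Among the subunits, NFKB1 (209239_at, gene at chr4:102501359-102617302), which encodes a Rel protein made as a precursor, had levels of 7.98, 8.04 and 8.02 in ERC4 cells and 8.16, 8.20 and 8.07 in parental cells. The groups did not overlap, but the difference of -0.13 ± 0.08 was not called (adjusted p = 0.18). After quantile normalization within the set it was -0.36 and called (adjusted p = 0.0036), so the reading for NFKB1 in ERC4 depends on the scaling. In EGFRsh cells its levels were 9.52, 9.72 and 9.62, against 9.25, 9.40 and 9.32 in NT cells, a rise of 0.30 ± 0.07 (adjusted p = 0.0088). Every EGFRsh array lay above every NT array.

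NFKB2, the precursor of the slower branch, was read by 3 probe sets. The brightest (207535_s_at) had levels of 6.61, 6.36 and 6.67 in ERC4 cells and 6.08, 5.81 and 6.06 in parental cells, a rise of 0.56 ± 0.11 (adjusted p = 0.0022). In EGFRsh cells it had 7.96, 8.21 and 8.25, against 7.77, 7.75 and 7.93 in NT cells, and rose by 0.32 ± 0.09 (adjusted p = 0.016). The groups were close there, and the call ended without NT replicate 1 (adjusted p = 0.052), NT replicate 2 (0.057), EGFRsh replicate 2 (0.056) or EGFRsh replicate 3 (0.054). The second probe set (209636_at) had levels of 8.30, 8.25 and 8.12 in EGFRsh cells and 6.84, 7.06 and 6.81 in NT cells. All EGFRsh arrays were far above all NT arrays, a 2.50-fold rise (1.32 ± 0.09, adjusted p = 1.9e-06), so the probe sets agree in direction and differ in size. In ERC4 cells 209636_at had 5.58, 5.35 and 5.87, against 5.05, 5.42 and 5.31 in parental cells, overlapping, and its 0.34 ± 0.14 was not called (adjusted p = 0.073). It was called without parental replicate 2 (0.42) or ERC4 replicate 2 (0.46), after quantile normalization (0.42, adjusted p = 0.033), after median centring (0.39, adjusted p = 0.04) and in 1 model of 12 arrays (adjusted p = 0.036). Its means lay 0.09 under the array medians in ERC4, 0.48 under in parental and 0.26 under in NT cells, so the low sides of both comparisons were dim. The third (211524_at) was dim, between 4.62 and 5.03 on all arrays and at least 0.93 under the array medians in every group mean, and was called in neither comparison.

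RELB (205205_at, gene at chr19:45001464-45038192) had levels of 6.02, 6.19 and 6.07 in ERC4 cells and 5.93, 5.97 and 5.79 in parental cells. The groups did not overlap, and the difference of 0.19 ± 0.09 was not called (adjusted p = 0.089), though median centring brought it to 0.25 and a call (adjusted p = 0.041). In EGFRsh cells it had 8.76, 8.60 and 8.56, against 7.51, 7.47 and 7.74 in NT cells. Every EGFRsh array exceeded every NT array, a rise of 1.07 ± 0.09 (adjusted p = 9.6e-06).

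NFKBIA (201502_s_at), whose product IkB-alpha retains NF-kB in the cytoplasm and is itself replenished by NF-kB, was lower in both comparisons. Its levels were 10.41, 10.38 and 10.44 in ERC4 cells and 10.86, 10.87 and 10.85 in parental cells, a log2 difference of -0.45 ± 0.07 (adjusted p = 0.00073). They were 12.38, 12.22 and 12.30 in EGFRsh cells and 12.98, 13.23 and 13.12 in NT cells, with a log2 difference of -0.81 ± 0.08 (adjusted p = 2.9e-05). In neither comparison did the groups overlap.

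TNFAIP3 went the other way from NFKBIA. Its brightest probe set (202644_s_at) had levels of 8.30, 8.35 and 8.38 in ERC4 cells and 7.34, 7.53 and 7.55 in parental cells, a rise of 0.87 ± 0.08 (adjusted p = 3.2e-05), and 202643_s_at rose by 0.99 ± 0.11 (adjusted p = 6.2e-05). In EGFRsh cells 202644_s_at had 9.94, 9.92 and 9.90, against 9.55, 9.68 and 9.64 in NT cells, a smaller rise of 0.30 ± 0.06 (adjusted p = 0.0031). The other probe set differed by 0.13 ± 0.07 there and was not called (adjusted p = 0.15).

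TNFAIP2 (gene at chr14:103121469-103137439) moved in opposite directions. Its brightest probe set (202510_s_at) had levels of 9.48, 9.40 and 9.54 in EGFRsh cells and 7.89, 7.89 and 8.20 in NT cells, and 202509_s_at had 8.48, 8.16 and 8.18 against 6.59, 6.39 and 6.65. Both rose with no overlap, by 1.48 ± 0.09 (adjusted p = 1.5e-06) and 1.73 ± 0.10 (adjusted p = 1.2e-06), the second from a mean 0.62 under the array medians in NT cells. In ERC4 cells 202509_s_at had 6.57, 7.06 and 6.80, against 7.38, 7.62 and 7.46 in parental cells, a difference of -0.68 ± 0.12 (adjusted p = 0.0016). The brighter 202510_s_at had 9.08, 8.93 and 8.81, against 9.15, 9.25 and 9.19, and differed by only -0.26 ± 0.09 (adjusted p = 0.037). That call ended with the replicate number as a block (adjusted p = 0.051), after median centring (0.094) and without parental replicate 2 (0.09), parental replicate 3 (0.071), ERC4 replicate 2 (0.095) or ERC4 replicate 3 (0.14). Under other alternatives the call of 202510_s_at held, and after quantile normalization within the set it was larger (-0.48, adjusted p = 0.0022). The fall of TNFAIP2 in ERC4 therefore rests mainly on 202509_s_at.

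**Figure D2:**
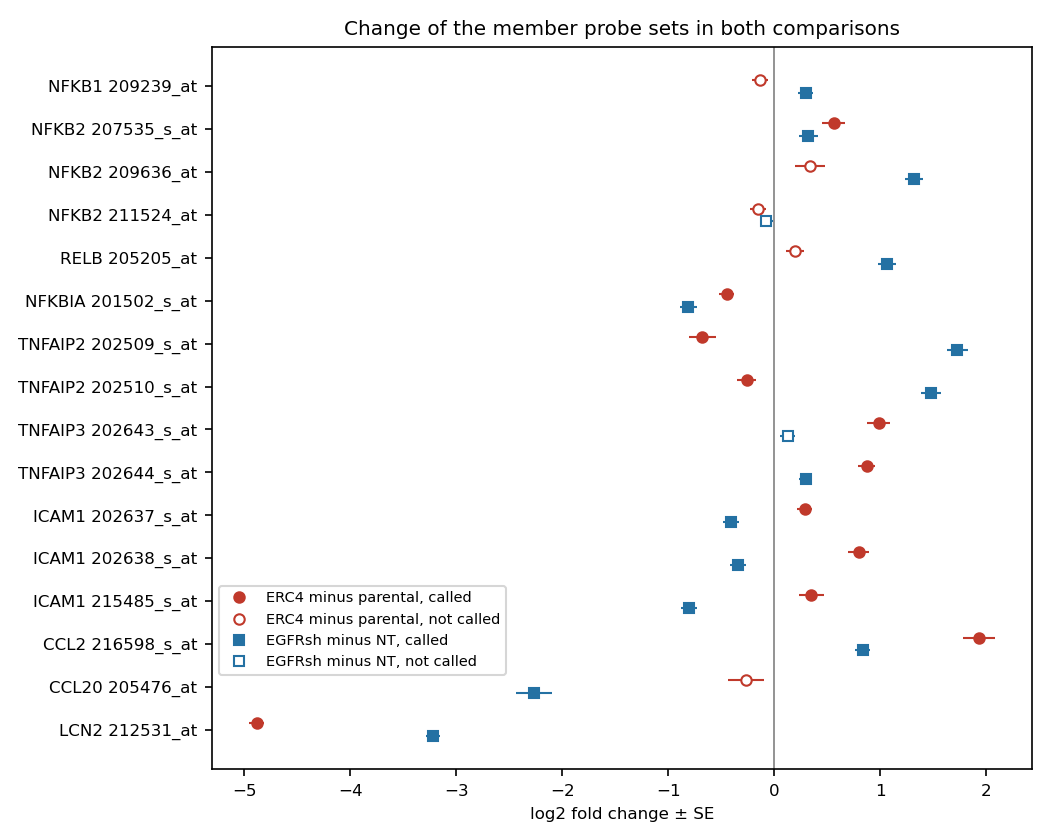
Log2 fold changes of the 16 probe sets with limma's standard error, in ERC4 minus parental (circles) and EGFRsh minus NT (squares). Filled symbols are called. TNFAIP2 and ICAM1 lie on opposite sides of 0 in the 2 comparisons, and LCN2 lies far to the left in both, at -4.88 and -3.22.

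ICAM1 (gene at chr19:10271120-10286615), a surface protein that leukocyte integrins bind, was the other gene that moved in opposite directions, with 3 probe sets that agreed in sign. In ERC4 cells 202638_s_at had levels of 8.94, 9.17 and 8.99, against 8.07, 8.33 and 8.30 in parental cells, a rise of 0.80 ± 0.10 (adjusted p = 0.00016). The brightest (202637_s_at) rose by 0.29 ± 0.08 (adjusted p = 0.011) and 215485_s_at by 0.35 ± 0.12 (adjusted p = 0.032). Quantile normalization within the set ended both of these smaller calls (0.06, adjusted p = 0.54, and 0.12, adjusted p = 0.45). The call of 215485_s_at also ended without parental replicate 2 (adjusted p = 0.097), ERC4 replicate 2 (0.11) or ERC4 replicate 3 (0.11). In EGFRsh cells 202637_s_at had 10.26, 10.36 and 10.42, against 10.82, 10.65 and 10.79 in NT cells, and 215485_s_at had 8.33, 8.48 and 8.51 against 9.34, 9.16 and 9.25. All EGFRsh arrays lay under all NT arrays for both, with differences of -0.41 ± 0.07 (adjusted p = 0.0014) and -0.80 ± 0.08 (adjusted p = 2.2e-05). The third, 202638_s_at, was lower 1.27-fold (adjusted p = 0.004).

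CCL2 (216598_s_at, gene at chr17:34255285-34257203) had levels of 6.29, 6.81 and 6.45 in ERC4 cells and 4.54, 4.38 and 4.83 in parental cells, a rise of 1.93 ± 0.15 (adjusted p = 7.9e-06). In EGFRsh cells it had 5.87, 5.97 and 6.03, against 5.04, 5.22 and 5.11 in NT cells, a rise of 0.83 ± 0.07 (adjusted p = 1.3e-05). The groups were apart in both, but the gene was dim outside ERC4: its mean lay 0.83 above the array medians in ERC4 cells and 1.16 under them in parental, 1.21 under in EGFRsh and 2.04 under in NT cells. The fold sizes of CCL2 thus rest on dim signal, on the parental side for ERC4 and on both sides for EGFRsh.

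CCL20 (205476_at), which draws CCR6-bearing lymphocytes and dendritic cells, had levels of 6.42, 5.73 and 5.96 in EGFRsh cells and 8.54, 8.12 and 8.26 in NT cells. Every EGFRsh array lay more than a doubling under every NT array, with a difference of -2.27 ± 0.17 (adjusted p = 4.6e-06), and the EGFRsh mean was 1.13 under the array medians. In ERC4 cells it had 6.01, 6.10 and 5.83, against 5.87, 6.64 and 6.22 in parental cells. These overlapped and the difference of -0.26 ± 0.17 was not called (adjusted p = 0.22), but without parental replicate 1, the lowest parental array, it was -0.45 and called (adjusted p = 0.025).

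LCN2 (212531_at) had the largest log2 change of the 10 genes in both comparisons. Its levels were 8.13, 8.13 and 8.07 in ERC4 cells and 13.00, 12.98 and 12.99 in parental cells, a difference of -4.88 ± 0.07 (adjusted p = 4.1e-10). In EGFRsh cells they were 9.59, 9.47 and 9.53, against 12.70, 12.83 and 12.73 in NT cells, a difference of -3.22 ± 0.07 (adjusted p = 2.2e-09). All 4 group means lay above their array medians, with the nearest at 2.36 above. Of 8 markers of lung epithelium, 6 were lower in ERC4 (CDH1, EPCAM, KRT7, KRT8, KRT18 and KRT19). NKX2-1 was higher there (0.37, adjusted p = 0.0067) and SFTPB was not called (0.01, adjusted p = 0.93). In EGFRsh all 8 were lower. By 1 probe set per gene, 24.8% of all genes were lower in ERC4 and 26.1% in EGFRsh. The summed intensity of the 8 markers was 8498 to 8890 in ERC4 against 18658 to 18932 in parental arrays. It was 10738 to 11191 in EGFRsh against 58973 to 60272 in NT arrays. These sums run with the group and their part in the LCN2 result was not tested. All 8 epithelial markers had group means above the array medians, except CDH1 in EGFRsh cells. In bulk RNA, fewer cells of a kind and less RNA per cell cannot be told apart.

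Leukocytes and stromal cells also make several of these products, so their markers were read too, although all groups are HCC827 cells or derivatives. Of 11 measured leukocyte markers, 11 lay under the array medians by group mean in ERC4, EGFRsh and NT cells and 10 in parental cells, where ITGAM was at the median. Their summed intensity was 286 to 293 in ERC4 and 329 to 348 in parental arrays, and 555 to 614 in EGFRsh and 562 to 596 in NT arrays. In ERC4 cells 0 were higher and 3 lower, and in EGFRsh cells 2 were higher and 1 lower. Of 8 fibroblast and endothelial markers, 7 lay under the medians in ERC4, EGFRsh and NT cells and 6 in parental cells. COL1A1 was above them throughout. LUM, which encodes the matrix proteoglycan lumican, rose in both, by 0.53 in ERC4 (adjusted p = 0.0039) and 2.56 in EGFRsh (adjusted p = 3.7e-09), to means that were still under the array medians. In ERC4 PDGFRB (-0.74), DCN (-0.36) and COL1A1 (-0.30) were lower and 4 markers were not called, with the COL1A1 call ending without ERC4 replicate 1 or 2 (adjusted p = 0.059 and 0.067). In EGFRsh CDH5 (-0.34) was lower and 6 were not called. These genes are named after their values were seen, and their part in the results was not tested. Their summed intensity was 335 to 366 in ERC4 and 420 to 429 in parental arrays, and 945 to 990 in EGFRsh and 892 to 978 in NT arrays.

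The genes whose profile came closest to that of LCN2 were found by the root mean square difference over the 12 arrays, after subtracting each probe set's mean within its set of 6. SH3YL1 was closest at 0.43, followed by ESRP1 (0.54), LAD1 (0.58), ST14 (0.62) and GALNT3 (0.62). All 5 had lower means in both comparisons. In ERC4 none of the 5 had as large a change as LCN2, the nearest being ESRP1 with a log2 fold change of -3.85, and only LAD1 still lay above the array medians there. In EGFRsh, ST14 (-4.43) and ESRP1 (-4.22) had larger changes than LCN2. ESRP1 encodes a splicing regulator of epithelial cells, ST14 the membrane protease matriptase, LAD1 a filament-anchoring protein of epithelia and GALNT3 an enzyme that starts O-glycans. The measure says only that the profiles are alike over these 12 arrays.

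**Figure D3:**
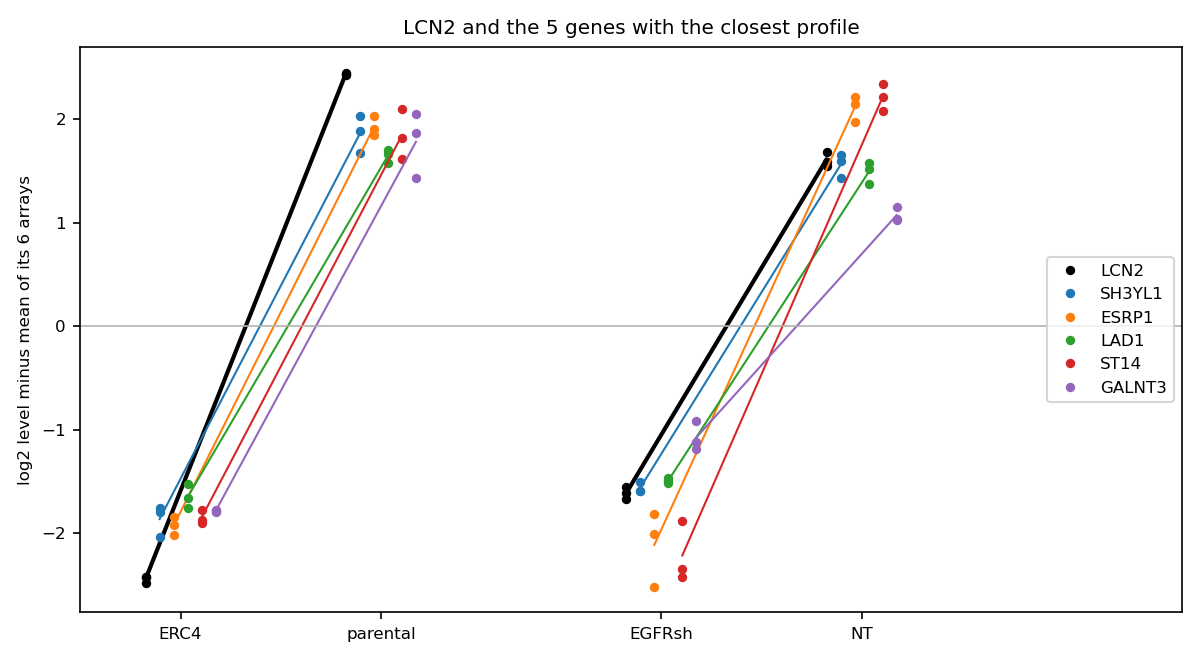
LCN2 (black) and the 5 genes with the closest profile, as log2 level minus the gene's mean over its set of 6 arrays. Points are arrays and lines join group means within a set. All 6 genes are lower in ERC4 than in parental and in EGFRsh than in NT cells, with the largest step in LCN2 for ERC4 and in ST14 for EGFRsh.

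The changes of the 2 comparisons, which share no arrays, were then set against each other. By brightest probe set, 2 genes fell in both (NFKBIA and LCN2) and 3 rose in both (NFKB2, TNFAIP3 and CCL2). TNFAIP2 fell in ERC4 and rose in EGFRsh, and ICAM1 did the reverse. NFKB1, RELB and CCL20 were called in EGFRsh alone. Of all genes, 50.9% were called in ERC4 and 52.3% in EGFRsh. The share of all genes with each of these joint patterns was not counted. Whether the patterns are more frequent among these genes than elsewhere was therefore not tested. For TNFAIP2 and ICAM1 the ERC4 calls of the brightest probe sets are the ones that ended under the alternatives given above, while those of 202509_s_at and 202638_s_at held. A test of the difference of effects in 1 model of all 12 arrays called 14 of the 16 probe sets, 8 higher and 6 lower, where 47.4% of all probe sets were called, 23.9% higher and 23.5% lower. For TNFAIP2 the ERC4 effect minus the EGFRsh effect was -1.74 ± 0.13 (202510_s_at, adjusted p = 9.4e-08), and for CCL20 it was 2.01 ± 0.27 (adjusted p = 2.3e-05). The fall of LCN2 was greater in ERC4 by 1.66 on the log2 scale (-1.66 ± 0.09, adjusted p = 3.5e-09). Because signal was more widely spread in EGFRsh and NT arrays (mean SD of log2 values 2.26 and 2.24) than in ERC4 and parental arrays (1.94 and 1.83), sizes from the 2 sets are not on one scale. NFKB2 by its brightest probe set was not called (0.24 ± 0.15, adjusted p = 0.21).

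Other genes of the pathway were counted from lists with 1 probe set per gene, where 50.9% of all genes were called in ERC4 (26.0% higher, 24.8% lower) and 52.3% in EGFRsh (26.2% higher, 26.1% lower). Of the other subunits and IkB proteins, 4 were measured, and their names were taken after their values were seen. In ERC4, RELA (log2 fold change 0.68), which encodes the main activating subunit, and the inhibitors NFKBIB (0.23) and NFKBIE (0.27) were higher, and REL (-0.72) was lower. The calls of both inhibitors ended when single arrays were left out, NFKBIB without any one of parental replicates 1, 2 and 3 and ERC4 replicates 1 and 3 (adjusted p between 0.052 and 0.11) and NFKBIE without parental replicate 1 or 2 or ERC4 replicate 1 or 3 (between 0.061 and 0.12). Quantile normalization also brought NFKBIB to 0.11 (adjusted p = 0.27). REL was dim in ERC4, at a level of 4.28, and is counted again among the targets. In EGFRsh, NFKBIE rose 2.17-fold, from a mean of 6.99 in NT cells that lay under the array medians. REL was lower there (-0.73), while RELA (-0.03) and NFKBIB (0.14) were not called. The medians of these 4 were 0.25 and 0.05, against -0.04 and -0.02 over all genes.

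Upstream of the factor, 22 of 26 listed receptors, adaptors and kinases were measured. In ERC4, 8 were higher, 5 lower and 9 not called (median 0.08), and in EGFRsh, 10 were higher, 8 lower and 4 not called (median 0.10). MAP3K14, which encodes NIK, had log2 fold changes of 1.03 ± 0.10 in ERC4 and 1.00 ± 0.07 in EGFRsh. Its NT mean of 6.96 lay under the array medians. BIRC2, whose product is a ubiquitin ligase that limits NIK, had log2 fold changes of 1.15 ± 0.09 in ERC4 and 1.62 ± 0.06 in EGFRsh. The deubiquitinase gene CYLD, an inhibitor of the pathway, was 2.15-fold higher in ERC4 and 4.58-fold higher in EGFRsh. TRAF1 rose 3.89-fold and TRAF3, the adaptor that brings NIK to its ligase, 2.09-fold in EGFRsh. Neither was called in ERC4 (0.09, adjusted p = 0.62, and -0.12, adjusted p = 0.45), though TRAF1 was called higher there without parental replicate 1 (0.27, adjusted p = 0.023). The TRAF1 means of 5.15 in ERC4 and 5.07 in parental cells lay under the array medians. IL1R1, the receptor for interleukin 1, rose 4.46-fold in ERC4 and fell by 1.14 on the log2 scale in EGFRsh (adjusted p = 2.3e-07 and 9.2e-06). Its means of 4.89 in parental and 6.85 in EGFRsh cells lay under the array medians, so the low sides of both comparisons were dim.

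Of 28 listed NF-kB target genes outside the 10, 25 were measured. In ERC4, 4 were higher and 16 lower (median -0.65), and in EGFRsh, 12 were higher and 2 lower (median 0.25). The neutrophil chemokine genes CXCL1 and CXCL8 had log2 fold changes of -3.19 ± 0.08 and -1.36 ± 0.10 in ERC4 and of 2.04 ± 0.09 and 3.04 ± 0.11 in EGFRsh. In ERC4 the survival genes BCL2A1 (-1.38) and IER3 (-1.02) were also lower, both with adjusted p-values of 1.8e-05 or less. BCL2A1 was dim on both sides, with means of 3.76 in ERC4 and 5.14 in parental cells under the array medians. In EGFRsh IER3 was higher (0.87, adjusted p = 4.1e-06) and BCL2A1 was not called (0.25, adjusted p = 0.057). The cytokine gene IL6 rose in both, with log2 fold changes of 1.45 ± 0.11 in ERC4 and 2.91 ± 0.13 in EGFRsh. Its parental mean of 5.44 lay under the array medians. IL1A rose 6.21-fold in EGFRsh, from a mean of 6.16 in NT cells that lay under the array medians. In ERC4 it was lower (-0.80, adjusted p = 0.0016). Its means of 4.09 in ERC4 and 4.89 in parental cells were both under the array medians. The complement gene CFB fell 3.57-fold in EGFRsh and was not called in ERC4 (-0.20, adjusted p = 0.08). CFB was called lower in ERC4 under 5 alternatives, among them quantile normalization (-0.42, adjusted p = 0.0026) and leaving out parental replicate 1 (-0.27, adjusted p = 0.024).

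A further list of 14 held partners and regulators of LCN2, of which 12 were measured. In ERC4, 1 was higher and 7 lower (median -0.37), and in EGFRsh, 3 were higher and 3 lower (median -0.03). The calcium-binding inflammatory genes S100A9 and S100A8 had log2 fold changes of -4.31 ± 0.08 and -2.48 ± 0.13 in ERC4, where both were dim, at levels of 3.70 and 3.96. Both lay well under the array medians of EGFRsh and NT arrays too. S100A9 averaged 4.80 in EGFRsh and 5.78 in NT cells and was called lower (adjusted p = 0.00015), and S100A8 averaged 4.54 and 4.62 and was not called (adjusted p = 0.34), so neither size can be read from signal this dim. CEBPD, a transcription factor of acute-phase genes, fell 1.56-fold in ERC4 and 3.37-fold in EGFRsh. MMP9, the protease that LCN2 binds and stabilises, rose 4.81-fold in EGFRsh and was not called in ERC4 (-0.12, adjusted p = 0.24). Its means of 5.21 in ERC4 and 5.34 in parental cells lay under the array medians.

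**Figure D4:**
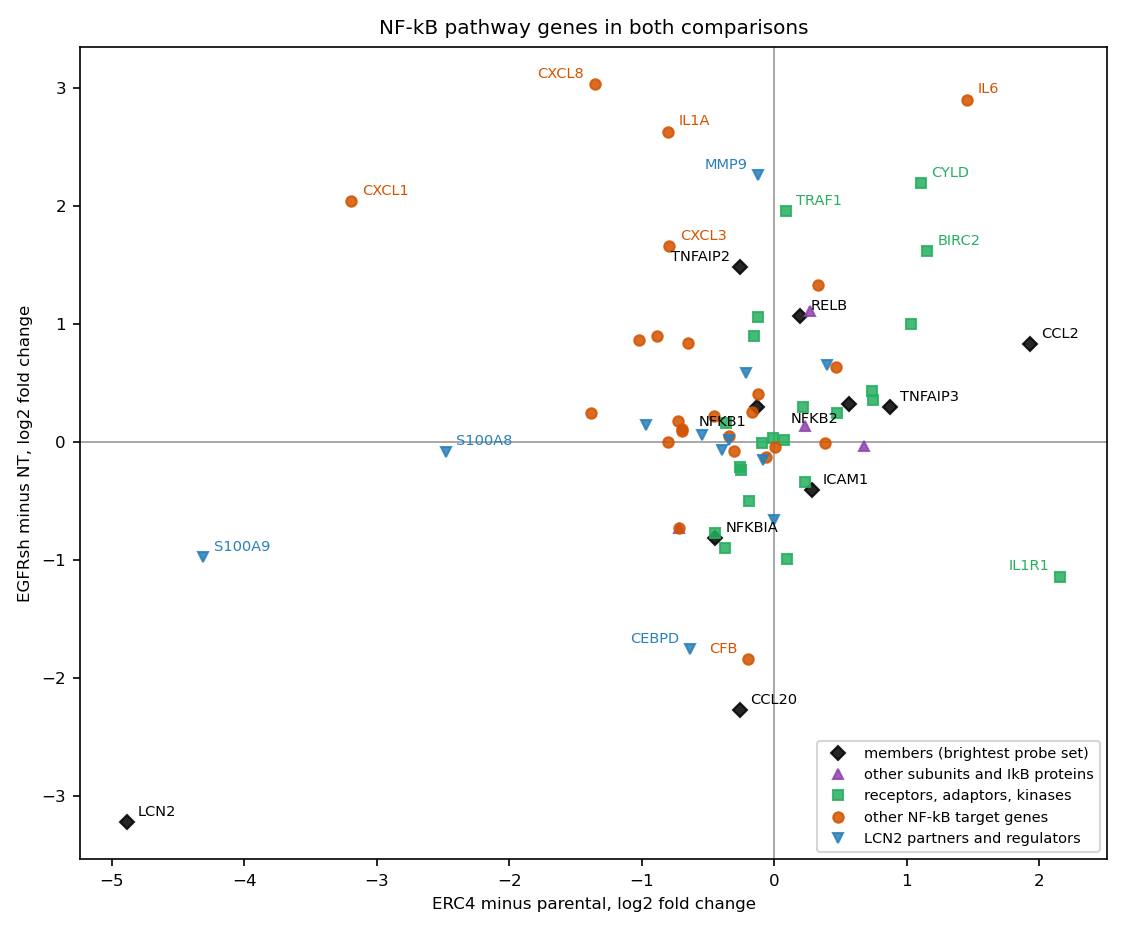
Log2 fold change in ERC4 minus parental (horizontal) and EGFRsh minus NT (vertical) of the 10 genes and the pathway lists, each point 1 gene by its brightest probe set. Labels mark the 10 genes and those with an absolute change of at least 1.5 in either comparison. CXCL1 lies at the upper left, with -3.19 and 2.04, LCN2 at the lower left, and IL6 at the upper right.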

How the data were processed

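Transcript levels of 12 samples were read on 3' expression arrays. The deposited intensities are linear, for 22277 probe sets on each array. The submitters' processing notes name RMA. No version, and no word on which arrays were normalized together, is given in the sources used here. Intensities were taken to log2(value + 1), which understates fold changes of dim probe sets, and 62 control probe sets were left out of the tests. The platform annotation gives 1 symbol for 19070 probe sets, several for 1043 and none for 2164. Symbols were updated by gene ID from RefSeq for 19058 of them. For lists, the probe set with the highest mean over the 12 arrays stood for a gene.

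Groups came from the sample titles, since a characteristic describes every sample alike as resistant. Each comparison was fitted on its own 6 arrays by lmFit and eBayes of limma 3.58.1 under R 4.3.3 (4 residual degrees of freedom), the difference of effects on all 12, and figures were drawn with matplotlib 3.10.9. The procedure was tested on simulated data in which far fewer probe sets changed than were called here. No conclusion on these comparisons is drawn from that test. Precision is limited by having 3 arrays in a group. The members, lists and tests were chosen with earlier results of these data known. Named beside the members are EGFR, up to 4 called genes per list, comparison and direction with an absolute log2 fold change of at least 1, and the 5 genes closest to LCN2. The other subunit and IkB genes and the cell type markers were named after their values were seen. Replicate numbers recur across groups, but deviations of same-numbered arrays correlated between -0.14 and 0.07, so they were not taken as pairs. Alternatives covered the replicate block, 1 model of 12 arrays, eBayes settings, the pseudocount, normalization, a filter on dim probe sets, 1 probe set per gene, the threshold and leaving out each array.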

Additional observations from a re-analysis of the deposited data

Results flagged for a closer look

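The change in ERC4 minus parental was tested against the change in EGFRsh minus NT, and the difference was called for 14 of the 16 probe sets (limma, 1 model of 12 arrays, adjusted over all probe sets). Differences are on the log2 scale and run as the ERC4 effect minus the EGFRsh effect. The change was higher in ERC4 for CCL20 (2.01), ICAM1 (0.69, 1.14 and 1.15 in its 3 probe sets), CCL2 (1.10), TNFAIP3 (0.57 and 0.86) and NFKBIA (0.36). It was lower in ERC4 for TNFAIP2 (-1.74 and -2.41), LCN2 (-1.66), NFKB2 by 209636_at (-0.98), RELB (-0.87) and NFKB1 (-0.43). For NFKBIA the adjusted p was 0.01, and quantile normalization within each set ended its call (0.21, adjusted p = 0.14). The others had adjusted p-values of 0.0034 or less. Sizes from sets of unequal spread enter these differences, and the part of that spread was not tested.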

How the results depend on the processing

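With every probe set on its own, 11 of the 16 were called in ERC4 minus parental, 14 in EGFRsh minus NT and 14 for the difference of effects. With 1 probe set per gene, 10 genes stand in place of 16 probe sets, and the counts were 7, 10 and 9. The same setting called 6217 of 11963 genes in ERC4 and 6410 in EGFRsh, against 10774 and 11184 of all 22215 probe sets, by its construction of fewer tests. For the difference of effects, the fit over all probe sets called 3021 of the 11963 genes higher and 2823 lower by brightest probe set. Leaving out 1 array at a time gave 9 to 12 of the 16 in ERC4, 13 to 14 in EGFRsh and 14 for the difference each time. Over all probe sets it gave 8617 to 10325 calls in ERC4 and 10011 to 10722 in EGFRsh, and among the pathway lists 39 to 44 and 35 to 41, against 44 and 39 with all arrays. Of the 16, only the dim NFKB2 probe set 211524_at changed sign, in the difference of effects where arrays were quantile-normalized per set (0.0019, adjusted p = 0.99), and it was not called before. Calls of single probe sets changed in 22 cases in ERC4, 5 in EGFRsh and 2 for the difference, and held in 216, 233 and 316. Of 32 other genes followed in the same way, 9 changed a call or sign somewhere: EGFR, NFKBIB, NFKBIE, CFB, TRAF1, COL1A1, DCN, BCL2A1 and RELA. In ERC4 the brightest EGFR probe set was called under 5 alternatives, and 2 others lost their calls under 6 each, NFKBIB under 8 and NFKBIE under 7. EGFR 211551_at lost its EGFRsh call under 11. Signs changed only for values not called: in ERC4, EGFR 211550_at after quantile normalization (0.0486), and otherwise when 1 array was left out. The ranges over those fits were -0.0177 to 0.1826 for EGFR 211551_at and -0.0097 to 0.2682 for TRAF1 in ERC4, and -0.0843 to 0.0053 for RELA and -0.0024 to 0.153 for EGFR 211550_at in EGFRsh. TRAF1 was called at the top of its range, without parental replicate 1.

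With the replicate number as a block, 10 of the 16 probe sets were called in ERC4, 14 in EGFRsh and 14 for the difference, and 10639 and 10454 of all probe sets. In neither set did every array correlate best with the array of its own number. The depth of signal limits CCL2 outside ERC4, CCL20 in EGFRsh, NFKB2 211524_at in every group, NFKB2 209636_at outside EGFRsh and TNFAIP2 202509_s_at in NT, which lay under the array medians.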

Other observations

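Levels in the 2 sets of arrays can be put side by side only as distance from the array medians, and a comparison across the sets is not made, since each group lies in 1 set alone and both cannot be told apart. LCN2 averaged 2.42 above the medians in ERC4 and 7.24 in parental cells, and 2.36 in EGFRsh and 5.59 in NT cells. TNFAIP2 (202510_s_at) averaged 3.25 above them in ERC4 and 3.45 in parental cells, and 2.30 in EGFRsh and 0.83 in NT cells. CCL20 averaged 0.29 above them in ERC4 and 0.49 in parental cells, and -1.13 in EGFRsh and 1.14 in NT cells.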
